A study of Mus musculus with 90 samples.

Results

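The genes described here are those of the cytosolic ribosomal proteins, the proteins that build the large and small subunits of the ribosome in the cytosol. Members were taken by name from the deposited table: Rpl or Rps with a number and at most a letter and a further number, Rplp0 to Rplp2, and Rpsa, leaving out the kinases of ribosomal protein S6. The rule found 81 members among 19962 genes, of which 43 encode large-subunit proteins, 31 small-subunit proteins and 7 paralogues whose names end in l or l1 (Rpl3l, Rpl7l1, Rpl10l, Rpl22l1, Rpl39l, Rpl32l and Rps27l). Expression was measured in mouse brain with the GeoMx Digital Spatial Profiler, in which light frees the probes of a chosen area of interest (AOI) of a section for counting by sequencing, here with the mouse Whole Transcriptome Atlas on formalin-fixed, paraffin-embedded sections of 5 µm. Tissue came from 6 mice under chronic social stress (CSS) and 4 unexposed controls (ctrl), and the labels give no strain, sex, age, genotype or stress protocol for either group. The 90 AOIs lay in the choroid plexus (CP), the hippocampal fields CA1 and CA3, the motor cortex (MC) and the somatosensory cortex (SS), 46 labelled p16 high and 44 labelled p16 low, where p16 is the cell cycle inhibitor encoded by Cdkn2a and a marker of senescent cells. The sources used here do not say how an AOI got its p16 label. An AOI is a piece of tissue with several cell types, so that more RNA of a gene per cell and more cells that contain it cannot be told apart.

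A ribosome holds 1 copy of nearly every ribosomal protein, and cells make the proteins in matching amounts and degrade the surplus. Most of their mRNAs begin with a run of pyrimidines, the terminal oligopyrimidine (TOP) tract, through which the kinase mTOR and the RNA-binding protein Larp1 hold them back from translation or release them. Ribosomal protein mRNAs are abundant in nearly all cells, for which reason several serve as reference genes in PCR. In nervous tissue they are also carried into dendrites and axons, and the epithelium of the choroid plexus, which secretes cerebrospinal fluid, makes large amounts of secreted protein.

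The start of the transcript is the part of the sequence that these genes are known to share, so it is shown for members on which the results below turn. RefSeq windows of 30 bases on GRCm38.p6, 15 bases before and 15 after the annotated start, were found for 63 members, and the other 18 have none in the table used. Each window was searched on both strands for 4 words of 5 letters that may overlap each other: CTTTC with a final cytosine, CTTTT with a final thymine, CTTCC with both final letters cytosine, and CTCTT with a cytosine in the middle. Bases in a word on the gene's own strand are in capitals, words on the opposite strand are left in lower case, and all windows are written 5′ to 3′ on the strand of the gene.
Rpl38 (chr11:114668565-114668594, plus strand): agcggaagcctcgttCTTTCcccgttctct
Rps6 (chr4:86857353-86857382, minus strand): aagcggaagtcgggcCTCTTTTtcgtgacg
Rplp2 (chr7:141447636-141447665, plus strand): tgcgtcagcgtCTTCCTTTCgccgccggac
Rps15a (chr7:118116133-118116162, minus strand): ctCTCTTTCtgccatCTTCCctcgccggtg
Rpl18 (chr7:45718056-45718085, plus strand): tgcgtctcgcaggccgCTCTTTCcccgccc
Rps27 (chr3:90213634-90213663, minus strand): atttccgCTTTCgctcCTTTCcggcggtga
Rpl13a (chr7:45128731-45128760, minus strand): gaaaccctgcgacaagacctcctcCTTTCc
Rpl22l1 (chr3:28805493-28805522, plus strand): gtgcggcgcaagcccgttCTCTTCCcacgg
Rpl41 (chr10:128549154-128549183, minus strand): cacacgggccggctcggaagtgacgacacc
Rps27l (chr9:66946071-66946100, plus strand): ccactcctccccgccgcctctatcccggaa
Rps16 (chr7:28350674-28350703, plus strand): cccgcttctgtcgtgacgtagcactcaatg
Rpsa (chr9:120127751-120127780, plus strand): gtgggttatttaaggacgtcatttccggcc
Rplp0 (chr5:115559452-115559481, plus strand): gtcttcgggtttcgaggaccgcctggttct
A word was present on the gene's own strand in 31 of the 63 members (49.2%) and in 17.7% of all 27025 genes with a window. On the opposite strand 12 members (19.0%) and 18.3% of all genes held one. Of the 2 members with the highest choroid plexus difference below, Rps27l and Rpl41, neither window holds a word on the gene's own strand, and that of Rpl41 holds one on the opposite strand. This says only which letters are in these windows. The 81 genes lie on 18 chromosomes, 14 of them on chromosome 7.

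Recovered probe counts ran from 184469 to 2098984 per AOI, with a median count per gene between 6 and 82. The deposited values are a signal with the same median over genes, 22.067, in every AOI. Members were well measured as a rule: 76 of the 81 lay in the quartile of highest mean signal, and the same number stood above the negative control probe (signal 10.8 to 18.1) in all 90 AOIs. Rpl39l, Rpl10l, Rpl3l and Rpl32l lay near that probe, so differences in these 4 paralogues were poorly measurable. Markers matched the label of the choroid plexus: all 8 choroid plexus markers were higher in CP and all 12 neuronal markers lower, with summed neuronal signal of 229 to 368 in CP against 3519 to 17299 elsewhere. Cdkn2a, the check of the p16 labels, differed between p16 high and low AOIs by -0.04 (log2, SE 0.11) in hippocampus and cortex and by 0.30 (SE 0.22, limma adjusted p = 0.89) in CP, at a mean signal of 22.9 that is close to the median gene, and so did not separate them. Probe sequences were not used here, so that signal of a member and of a paralogue or processed pseudogene with near-identical sequence cannot be told apart.

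**Figure D1:**
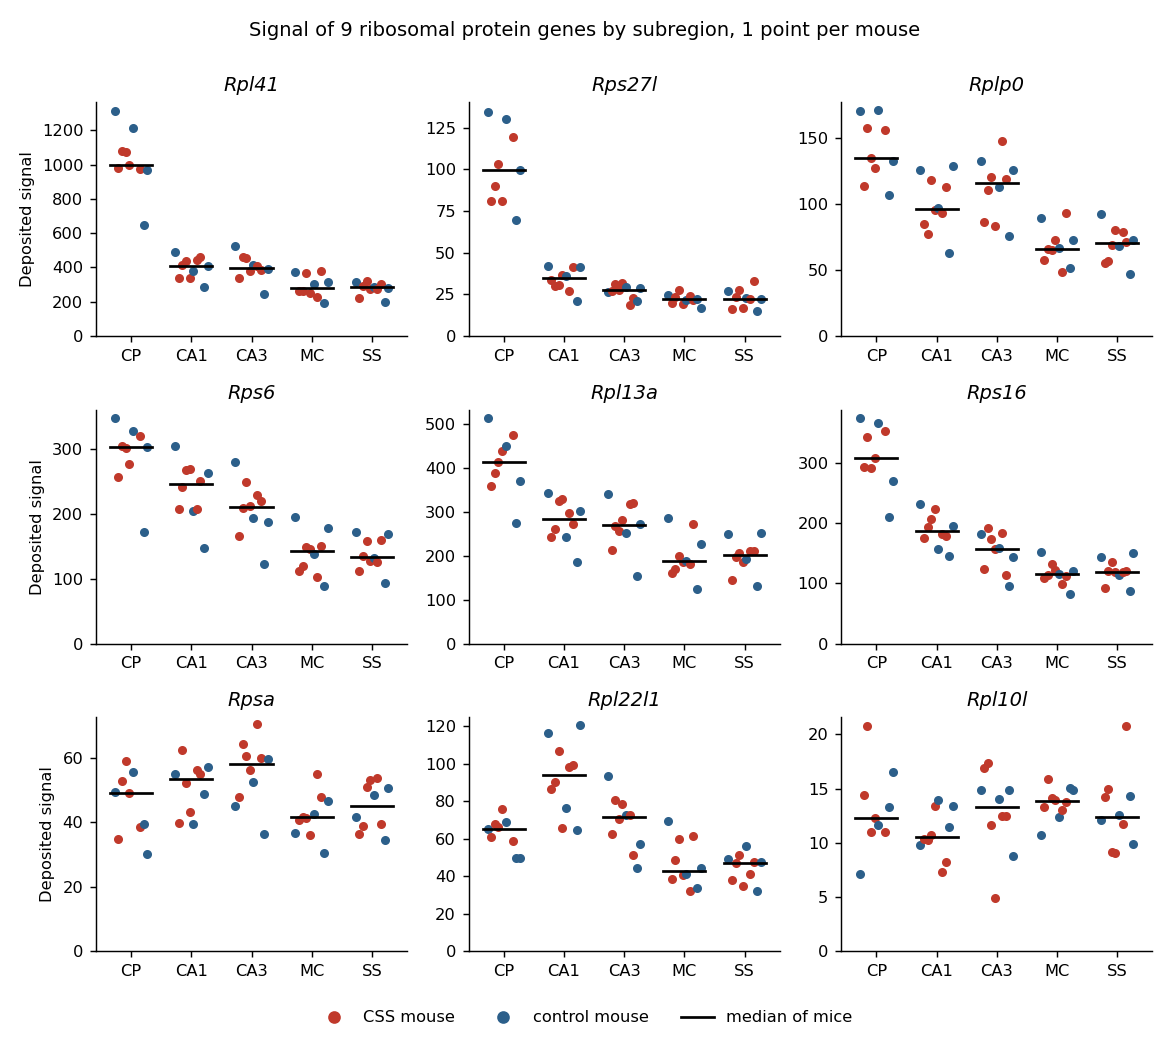
Deposited signal (linear scale, starting at 0) of 9 members in the 5 subregions, 1 point per mouse, red for CSS and blue for control, with a bar at the median of mice. Rpl41 and Rps27l stand in CP above every mouse of the other subregions, Rpsa and Rpl22l1 do not, and Rpl10l stays near the negative probe.

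In the choroid plexus nearly the whole set was higher than in the hippocampus and cortex of these animals. Of the 81 members 71 were called higher (limma, Benjamini-Hochberg adjusted p under 0.05 over all genes, 9 mice) and 0 lower, in a comparison that called 20.6% of all genes higher and 19.6% lower. The median difference of the members was 0.56 on the log2(signal + 1) scale against -0.03 over all genes and -0.17 over the quartile of genes with the highest signal. Of the large-subunit genes 39 of 43 passed, of the small-subunit genes 30 of 31 and of the paralogues 2 of 7, Rps27l and Rpl7l1. The median over members ran from 0.37 in control mouse 1182 to 0.81 in control mouse 1168. Over all genes it ran from -0.02 in CSS mouse 1170 to 0.05 in CSS mouse 1163.

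Rps27l and Rpl41 stood out from the other members. Rps27l, a paralogue of Rps27 that is induced by p53, had a signal of 69.6 to 135 in CP (median 99.3) and of 19.8 to 30.04 (median 27.2) in the rest, lowest to highest of 9 mice. This was a log2 difference of 1.91 (SE 0.08, 3.76-fold, limma adjusted p = 8.7e-14). Rpl41, which encodes a very short basic peptide at the surface where the subunits meet, had 649 to 1310 in CP (median 998) against 231 to 427 (median 348). Its difference was 1.60 (SE 0.05, 3.03-fold, adjusted p = 1.1e-15). The lowest CP mouse was above the highest mouse of the other subregions for both genes.

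Next in size came 6 members with folds of 1.98 to 2.21. Rps16, whose tail reaches the transfer RNA at the P site, had 211 to 374 in CP (median 309) against 102 to 178 (median 152), a difference of 1.14 (SE 0.06). Rps15a had 124 to 224 (median 183) against 57.4 to 96.9 (median 86.6), a difference of 1.14 (SE 0.07). The groups did not overlap in either gene. Rpl18 rose by 1.05 (SE 0.06), Rps12 by 1.03 (SE 0.08), Rpl36 by 1.03 (SE 0.05) and Rps9 by 0.99 (SE 0.08), each higher in 9 of 9 mice with an adjusted p of 2.6e-09 or less.

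Functional parts of the ribosome moved unevenly. In the stalk of the large subunit, which recruits elongation factors, Rplp0 was higher by 0.74 (SE 0.07; 107 to 171 against 59.2 to 110), Rplp2 by 0.42 (SE 0.07) and Rplp1 by 0.31 (SE 0.06, higher in 8 of 9 mice). Rpl5 and Rpl11, which bind the 5S RNA and, outside the ribosome, the p53 inhibitor Mdm2, were higher by 0.64 (SE 0.07) and 0.67 (SE 0.05). Rps6, the substrate of the S6 kinases, had 172 to 349 in CP (median 303) against 113 to 238 (median 189), a difference of 0.72 (SE 0.05). Rps27a, translated as a fusion with ubiquitin, was higher by 0.69 (SE 0.06). Rpl10, which joins the large subunit late in assembly, was higher by 0.95 (SE 0.05). Rps19 and Rps26, both mutated in Diamond-Blackfan anaemia, were higher by 0.70 (SE 0.07) and 0.58 (SE 0.07), Rps3 at the mRNA entry by 0.44 (SE 0.06), and Rpl38, needed for patterning of the mouse skeleton, by 0.40 (SE 0.07). Each of these passed the test.

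All 4 members listed as reference genes in PCR were called higher in CP, as were most members and 20.6% of all genes. Rpl13a differed by 0.83 (SE 0.05), Rplp0 as given above, Rps18 by 0.54 (SE 0.07) and Rpl19 by 0.39 (SE 0.05, higher in 8 of 9 mice).

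The test was not passed by 10 members. Rpsa, the laminin receptor precursor of the small subunit, had 30.3 to 59.1 in CP (median 49.0) and 37.5 to 53.5 elsewhere (median 47.2), a difference of -0.05 (SE 0.10, adjusted p = 0.75). Rpl4, which lines the exit tunnel, had 144 to 264 (median 207) against 140 to 299 (median 223), a difference of -0.02 (SE 0.06, adjusted p = 0.84). Both overlapped almost fully between CP and the rest. Rpl3, part of the peptidyl transferase centre, differed by 0.13 (SE 0.07, adjusted p = 0.16), Rpl37 by 0.13 (SE 0.06, adjusted p = 0.067), Rpl27a by 0.16 (SE 0.08, adjusted p = 0.12) and Rpl22l1 by 0.06 (SE 0.09, adjusted p = 0.62). The others were the 4 paralogues near the negative probe, at -0.18 for Rpl32l, -0.05 for Rpl39l, 0.03 for Rpl10l and 0.19 for Rpl3l. Rpl7l1, a paralogue of Rpl7, passed at 0.55 (SE 0.08).

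**Figure D2:**
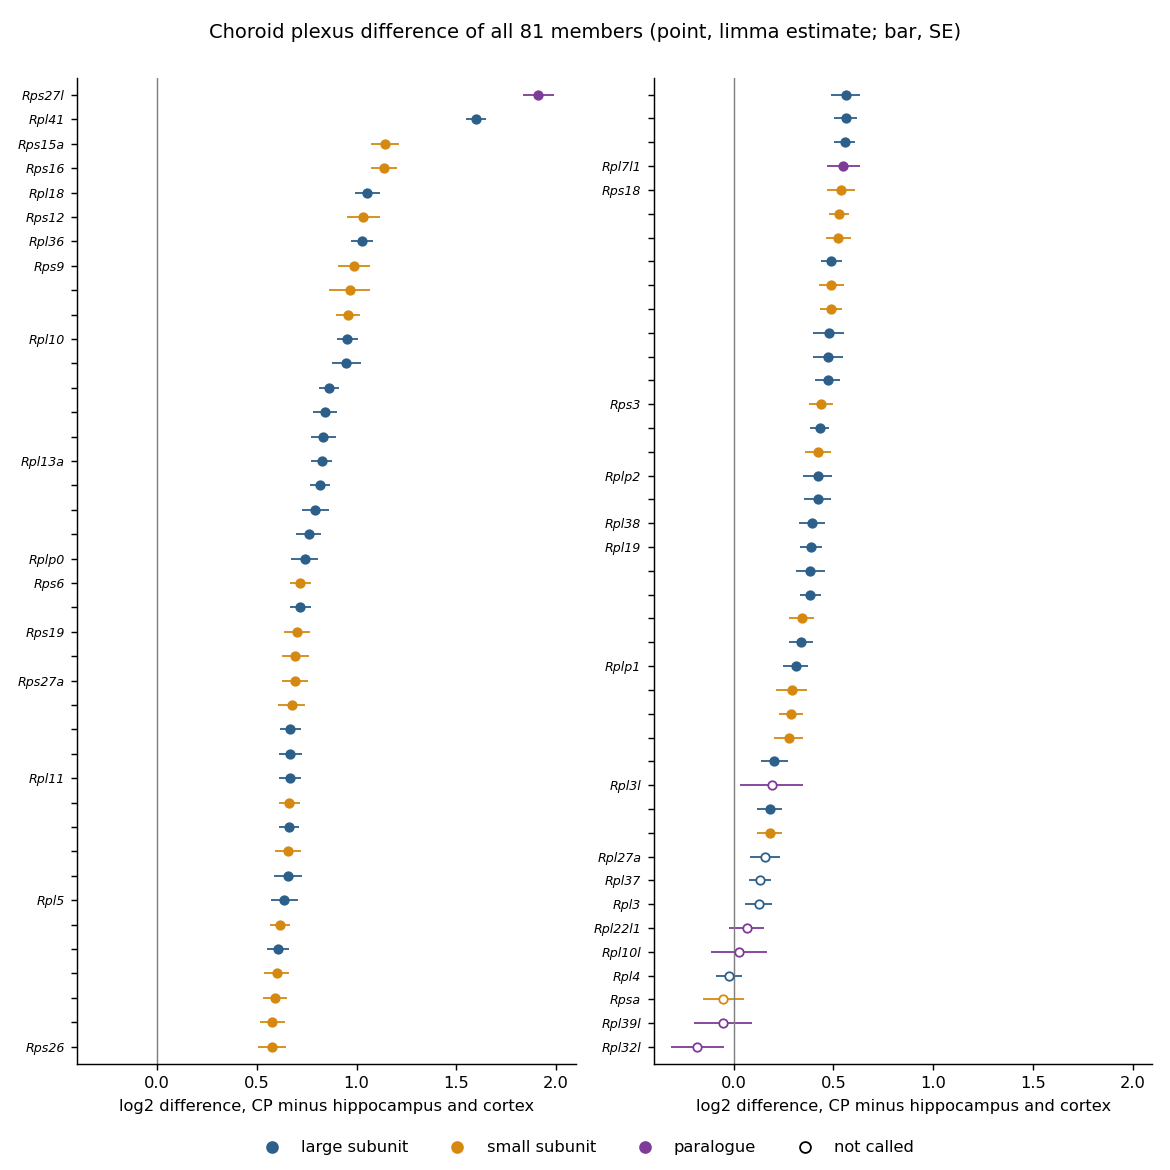
Log2 difference of all 81 members between CP and hippocampus and cortex (x axis, limma estimate with its SE as bar, 9 mice), ordered by size and coloured by subunit, with names for members given in the text and open points for members that were not called. The estimates run from -0.18 for Rpl32l to 1.91 for Rps27l, and 71 points are filled, all to the right of 0.

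With the deposited signal, the distance of the choroid plexus depended on the subregion it was set against. In 1 fit over all subregions, 45 members were called higher in CP than in CA1 (19.1% of all genes) and 6 lower (26.7% of all genes), namely Rpl3, Rpl4, Rpl14, Rpl22l1, Rpl27a and Rps3a1, with a median of 0.26. Against CA3, 55 were higher (18% of all genes) and Rpl4 and Rpsa lower (22.6% of all genes), with a median of 0.42. Against MC and SS, 76 were higher in each case (22.8% and 24.1% of all genes) and 0 lower, with medians of 0.82 and 0.80.

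The share of all counts taken by the 81 members does not use the factor of the deposited signal. It divides by the total count of the AOI, as scaling to the total count does. It was 2.09% ± 0.18 in CP and 1.48% ± 0.12 in hippocampus and cortex (mean ± SD of 9 mice), a ratio of 1.41, and was higher in CP in 9 of 9 mice. The secreted thyroid hormone carrier Ttr alone took 7.20% to 10.5% of CP counts, and without Ttr the share of the members in CP was 2.31%. Within the members' own counts the balance also differed. Rpl41 took 5.76% ± 0.32 of them in CP and 2.90% ± 0.15 in the rest, and Rps27l 0.564% ± 0.067 against 0.227% ± 0.020, both higher in every mouse. Rpl4 took 1.19% ± 0.10 against 1.85% ± 0.10, Rpl37 1.04% ± 0.08 against 1.47% ± 0.08, and Rpsa 0.257% ± 0.049 against 0.410% ± 0.047, each lower in every mouse. In all, 15 members had a higher share and 23 a lower share in every mouse.

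**Figure D3:**
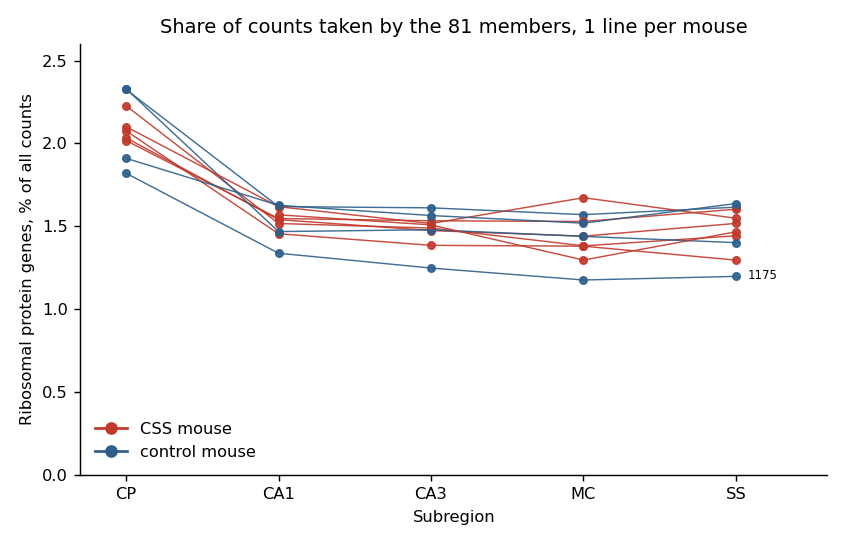
Percent of all recovered counts taken by the 81 members (y axis, from 0) in each subregion, 1 line per mouse, red for CSS and blue for control. The 9 mice with CP lie between 1.82% and 2.33% there and between 1.18% and 1.67% in the other subregions, with control mouse 1175 lowest in each.

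Lists of related genes outside the name rule are given here beside the 20.6% of all genes called higher and 19.6% called lower in the same comparison. Among ribosomal protein genes with other names, Fau, Rpl36al and Rack1 were called higher in CP, by 0.69 (SE 0.05), 0.78 (SE 0.06) and 0.55 (SE 0.07). No count over that list is given here. Of 18 other genes with TOP mRNAs, a list that also holds Fau and Rack1, 13 were higher and 2 lower, Eif3h and Nap1l1, with a median of 0.36. Tpt1 rose by 1.18 (SE 0.07), Eef1d by 1.01 (SE 0.07) and the translocase gene Eef2 by 0.67 (SE 0.04). Elongation and termination factors gave 6 higher and 2 lower of 10, with Eef1a2, the elongation factor of neurons and muscle, at -4.43 (SE 0.17). Initiation factors gave 14 higher and 7 lower of 33, such as Eif4g2 at 0.96 (SE 0.07) and Eif4a2 at -0.73 (SE 0.07). Ribosome biogenesis genes gave 5 higher and 8 lower of 38, with Polr1a, the large subunit of RNA polymerase I, at 1.58 (SE 0.07) and Nop56 at -0.59 (SE 0.09). Of 19 genes of the mTOR pathway and TOP regulators 4 were higher and 4 lower, shares near those of all genes, among them Larp1 at 0.73 (SE 0.06) and Rptor at -0.54 (SE 0.10). Mitochondrial ribosomal protein genes, 78 in number, gave 28 higher and 8 lower with a median of 0.08. Mdm2, Cdkn1a and Trp53 were higher by 1.10 (SE 0.08), 0.30 (SE 0.09) and 0.26 (SE 0.09). These are single genes, with no count over a list given here.

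Other cell types differed between CP and the rest at the same time. Beside the epithelial and neuronal lists, 5 of 6 endothelial markers and 6 of 8 markers of mural cells and fibroblasts were higher in CP, with summed signals of 203 to 322 and 248 to 544 in CP against 91.0 to 205 and 123 to 202 elsewhere. Of the oligodendrocyte markers 7 of 8 were lower. Astrocyte markers were lower in 7 of 8 and higher in 1, with summed signals of 208 to 264 in CP against 366 to 1143 elsewhere. The 2 erythroid markers measured, 1 of them called higher, summed to 61.3 to 1851 in CP (median 790.7) against 24.5 to 384 elsewhere. Of the ependymal markers 4 of 6 were higher and 1 lower, and of the markers of microglia and macrophages 1 of 8 was higher and 0 lower. The part of these cells in the difference of the members was not tested. Members with a word on their own strand in the start window had a median CP difference of 0.56 (26 of 31 called), and members without one 0.55 (28 of 32 called).

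Between hippocampus and cortex the set also moved together, but its direction changed with the scaling of the AOIs. With the deposited signal, 77 of 81 members were called higher in the hippocampus (34.4% of all genes) and 1 lower (16.7% of all genes), Rpl3l at -0.38 (SE 0.12, limma adjusted p = 0.0061, 10 mice). The members' median was 0.52 and that of all genes -0.03. Genes of high signal as a whole were higher in the hippocampus: the top signal quartile had a median of 0.60, and 4346 of its 4991 genes were called higher. Relative to that quartile the members' median lay at -0.09.

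Among the large differences was that of the stalk gene Rplp2, with 96.7 to 223 in the hippocampus (median 180) and 64.7 to 140 in cortex (median 95.8), a difference of 0.78 (SE 0.07). Rpl22l1, the paralogue of Rpl22, had 54.6 to 105 (median 80.3) against 33.0 to 59.4 (median 46.9), a difference of 0.77 (SE 0.07). Both were higher in 10 of 10 mice, though the groups overlapped across mice. Rpl3 differed by 0.77 (SE 0.07), Rpl5 by 0.77 (SE 0.06), Rps14 by 0.75 (SE 0.06), Rpl19 by 0.73 (SE 0.06), Rpl15 by 0.73 (SE 0.06), Rps6 by 0.68 (SE 0.06) and Rplp0 by 0.60 (SE 0.07). The smallest called were Rps29 at 0.27 (SE 0.06), Rps24 and Rps20 at 0.29 (SE 0.06 each) and Rpsa at 0.30 (SE 0.07). Rpl41 and Rps27l, the leading genes of the choroid plexus, stood at 0.49 (SE 0.06) and 0.40 (SE 0.10), and Rpl7l1 at 0.49 (SE 0.08). Rpl10l (-0.18), Rpl32l (-0.05) and Rpl39l (-0.05) did not pass.

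The AOIs were scaled in 7 other ways, for which counts of called members are given without the share of all genes called. Scaling to the 75th percentile left 50 members higher and 4 lower, scaling to the total count 26 higher and 16 lower, and quantile normalization 3 higher and 67 lower, with member medians of 0.16, 0.03 and -0.26. TMM scaling gave 76 higher and 2 lower (median 0.37), edgeR on the recovered counts 76 and 2 (0.35), scaling to the negative probe 77 and 0 (0.76), and subtraction of the negative probe 78 and 0 (0.65). The median of all genes moved with them, from -0.49 with total counts and -0.37 with the 75th percentile through 0.00 with quantiles to 0.20 with the negative probe and 0.37 with background subtraction. Relative to that median the members lay at 0.55 with the deposited signal, 0.53 with the 75th percentile, 0.52 with total counts and 0.56 with the negative probe, but at 0.28 after background subtraction and -0.26 after quantile normalization, which fixes the distribution of values in each AOI. Relative to the top signal quartile the members lay at -0.09 with the deposited signal, the 75th percentile, TMM, total counts and the negative probe, and at -0.31 after quantile normalization. Rpl22l1 was the 1 member called higher under all 8 treatments, and 78 members changed sign between treatments. The share of counts was 1.51% ± 0.09 in the hippocampus and 1.46% ± 0.14 in cortex, higher in 8 of 10 mice. Within the members' counts, Rpl22l1 took 0.562% in the hippocampus against 0.482% in cortex (10 of 10 mice) and Rpl4 1.91% against 1.75% (10 of 10). Rps24 took 1.78% against 2.11% and Rps29 1.52% against 1.81%, both lower in the hippocampus in every mouse. In all, 11 members had a higher share and 13 a lower share in the hippocampus in every mouse.

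**Figure D4:**
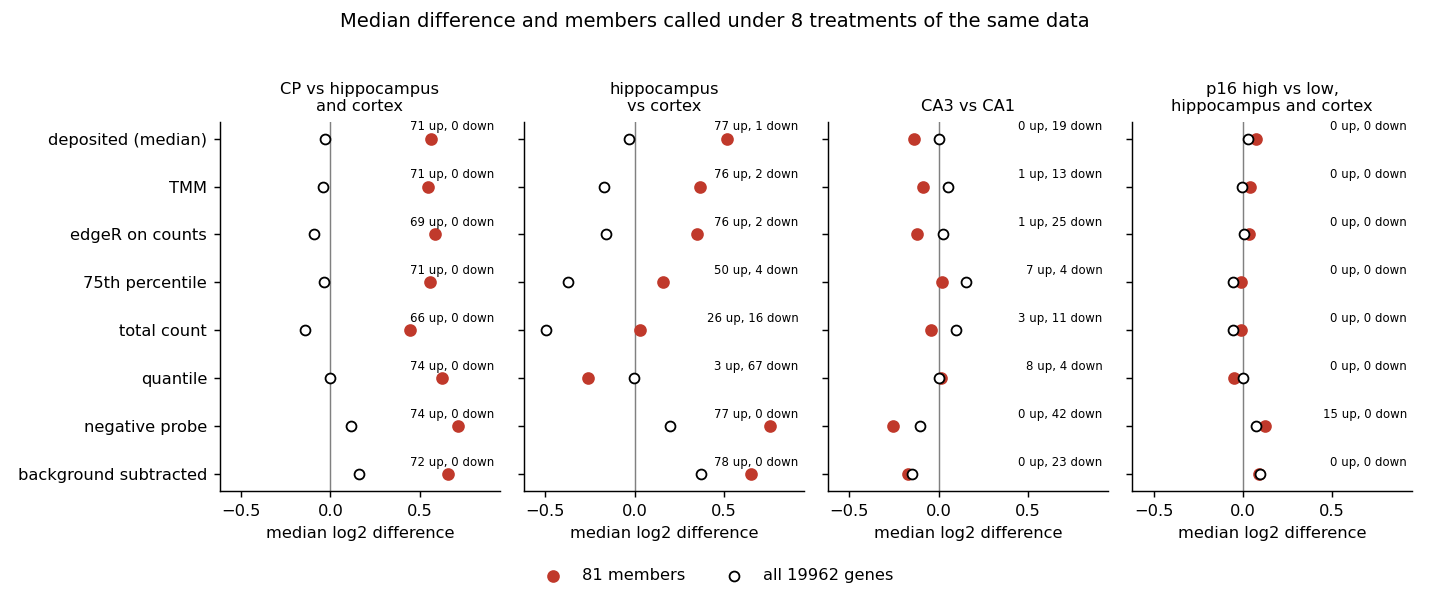
Median log2 difference (x axis) of the 81 members (red) and of all 19962 genes (open) in 4 comparisons under 8 treatments of the same data (rows), with the numbers of members called up and down. The share of all genes called is not drawn. In CP the members stay between 0.45 and 0.72, whereas between hippocampus and cortex they run from -0.26 to 0.76.

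Over the same 8 treatments 66 to 74 members were called higher in CP and 0 lower, 66 of them under every treatment, with member medians of 0.45 to 0.72. Relative to the quartile of genes with the highest signal the members lay at 0.73 with the deposited signal, 0.73 with the 75th percentile, total counts and the negative probe, and 0.76 after quantile normalization. With 5 mice of shallower counts 59 members were called, and with 5 of deeper counts 73. For fits other than the main one the share of all genes called is not given here. The log2 factors by which scaling to the 75th percentile divides the deposited signal averaged 0.01 in CP, 0.26 in CA1, 0.10 in CA3, -0.17 in MC and -0.19 in SS.

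Lists related to translation were also higher in the hippocampus with the deposited signal, in the comparison that called 34.4% of all genes higher: 33 of 33 initiation factors, 10 of 10 elongation and termination factors, 18 of 18 other TOP mRNAs, 31 of 38 biogenesis genes and 69 of 78 mitochondrial ribosomal protein genes (median 0.48). In the same comparison 4346 of the 4991 genes of the top signal quartile were called higher. Values of these lists under other scalings are not given here. Neuronal markers were higher too, 11 of 12 with a median of 0.94, and oligodendrocyte markers lower, 8 of 8 with a median of -0.73. Summed neuronal signal was 6978 to 17299 in hippocampal AOIs and 3519 to 8565 in cortical ones, and its part in the members' difference was not tested.

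CA3 was lower than CA1 in a smaller number of members. With the deposited signal 19 members were called lower in CA3 (12.7% of all genes) and 0 higher (5.04% of all genes, limma, 10 mice), 10 of the large subunit, 8 of the small and Rpl22l1. The median of the members was -0.14, of all genes 0.00 and of the top signal quartile -0.16. In that quartile 1743 of 4991 genes were called lower and 517 higher. Rps27, a zinc finger protein of the small subunit, had 45.0 to 86.1 in CA3 (median 71.5) and 61.4 to 137 in CA1 (median 99.5), a difference of -0.52 (SE 0.08, adjusted p = 1.2e-05). Rpl3 had 157 to 375 (median 245) against 239 to 486 (median 354), a difference of -0.48 (SE 0.07, adjusted p = 2.4e-06). Both were lower in CA3 in 10 of 10 mice, with overlap across mice.

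Rpl22l1 differed by -0.42 (SE 0.11), Rpl31 at the exit tunnel by -0.42 (SE 0.09), Rps23 of the decoding site by -0.37 (SE 0.07), Rplp2 by -0.35 (SE 0.08), Rps16 by -0.33 (SE 0.08) and Rpl5 by -0.30 (SE 0.09), with adjusted p from 0.0004 to 0.015. Rps27l, at -0.33 (SE 0.12), missed the threshold (adjusted p = 0.056). At the other end Rpl10l, Rplp0, Rpl38, Rpl29 and Rpsa had differences of 0.19 (SE 0.20), 0.16 (SE 0.09), 0.15 (SE 0.07), 0.13 (SE 0.08) and 0.11 (SE 0.10), none called, and Rpl41 one of -0.01 (SE 0.07). The stalk thus held both a called gene, Rplp2, and Rplp0, whose estimate had the opposite sign.

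Rps27, Rpl3, Rpl31 and Rps23 were called lower under all 8 treatments, and 41 members changed sign between them. The numbers of members called in the other fits below are given without the share of all genes called. Scaling to the 75th percentile gave 4 members lower and 7 higher (Rpl10a, Rpl22, Rpl28, Rpl29, Rpl38, Rplp0 and Rpsa), at a member median of 0.02, and quantile normalization 4 lower and 8 higher, these 7 and Rpl36a, at 0.01. Scaling to the negative probe gave 42 lower. The fit without the mouse as a replicate block called 4, Rpl22l1, Rpl3, Rpl31 and Rps27, and the 5 mice of shallower counts gave Rpl3, Rpl31 and Rps27. The share of counts was 1.48% ± 0.10 in CA3 and 1.53% ± 0.09 in CA1, higher in CA3 in 1 of 10 mice. CA3 AOIs differed in other tissue as well: 5 of 8 oligodendrocyte and 5 of 8 astrocyte markers were higher, and Ttr signal was 8.67 to 429 (median 212) in CA3 against 9.81 to 56.2 (median 13.1) in CA1. Their part in the members' difference was not tested.

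Between motor and somatosensory cortex limma called 0 of 81 members and 0% of all genes, and edgeR on the recovered counts also called 0 members. The median was -0.01, and 1 member had an unadjusted p under 0.05 (5.51% of all genes), Rpl5, at -0.17 (SE 0.08, unadjusted p = 0.033, limma adjusted p = 0.90), with 68.2 to 120 in MC and 80.2 to 151 in SS. The share of counts was 1.44% ± 0.14 and 1.47% ± 0.14.

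No member was called between p16 high and p16 low AOIs, and the sign of their median difference depended on the scaling. In hippocampus and cortex, 10 mice with p16 high and low AOIs of the same subregions gave 0 members called in either direction with limma, where 0.386% of all genes were called higher and 0% lower. At an unadjusted p under 0.05 there were 18 members with limma (14.2% of all genes) and 7 with edgeR on the recovered counts (12.1% of all genes), and edgeR also called 0. That is 22.2% and 8.64% of the members, below the 36.6% and 27.2% of genes in the top signal quartile. The median of the members was 0.07, of all genes 0.03 and of the top signal quartile 0.11. Rps27a had 90.8 to 195 in p16 high (median 143) and 84.2 to 157 in p16 low (median 123), with an adjusted p of 0.060 in limma, and was higher in 10 of 10 mice. Rpl4 had 148 to 331 (median 229) against 132 to 268 (median 212), a difference of 0.16 (SE 0.05, limma adjusted p = 0.090, 9 of 10 mice). Rpl9 differed by 0.16 (SE 0.05) and Rpl28 by 0.15 (SE 0.05). High and low AOIs overlapped widely across mice in all of them.

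The other named genes were at 0.14 (SE 0.05) for Rplp2, 0.12 (SE 0.05) for Rplp1, -0.02 (SE 0.06) for Rplp0, 0.12 (SE 0.04) for Rpl41, 0.10 (SE 0.05) for Rps6, 0.09 (SE 0.05) for both Rpl5 and Rpl11, and -0.01 (SE 0.05) for Rps19. With the 75th percentile, with total counts and after quantile normalization the median of the members turned to -0.01, -0.01 and -0.05, and 67 of 81 members changed sign between the 8 treatments. Scaling to the negative probe called 15 members higher, and fitting the genes above the median signal alone called 2, Rps27a (adjusted p = 0.031) and Rpl4 (adjusted p = 0.046). The share of all genes called in the same fit is not given here for either count. The share of counts gave no steady direction, since it was higher in p16 high AOIs in 3 of 8 mice in CA1, 4 of 8 in CA3, 4 of 9 in MC, 4 of 9 in SS and 3 of 7 in CP.

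By subregion, limma called 0 members in each, in comparisons that called 0.0902% of all genes higher in CA1 and 0% elsewhere, and edgeR called 0 as well. At an unadjusted p under 0.05 limma gave 13 members in CA1 (11.8% of all genes), 11 in CA3 (13.3%), 3 in MC (4.99%), 4 in SS (4.5%) and 5 in CP (5.24%). Counts with edgeR were 6 in CA1 (10.5% of all genes), 6 in CA3 (11.6%), 2 in MC (5.02%), 2 in SS (4.46%) and 2 in CP (5.5%). As shares of the 81 members the limma counts were 16%, 13.6%, 3.7%, 4.94% and 6.17%, and those with edgeR 7.41%, 7.41% and 2.47% in the other 3 subregions. Member medians were 0.11 in CA1, 0.14 in CA3, 0.01 in MC, 0.04 in SS and -0.07 in CP, where 14 of 81 members were above 0. Medians of the top signal quartile were 0.15 in CA1, 0.20 in CA3, 0.04 in MC, 0.06 in SS and -0.05 in CP. Of the 4991 genes of that quartile, 1741 were above 0 in CP. Rpl5 in CA3 had 117 to 289 in p16 high (median 188) and 88.3 to 190 in p16 low (median 149), a difference of 0.39 (SE 0.11, limma adjusted p = 0.18), higher in 8 of 8 mice. Without mouse 1152 it passed at 0.43 (adjusted p = 0.033). In CP, Rps15a had 104 to 200 (median 166) against 143 to 247 (median 208), a difference of -0.24 (SE 0.08, adjusted p = 0.89), lower in 7 of 7 mice. There Rpl41 differed by -0.11 (SE 0.06) and Rps27l by -0.15 (SE 0.09). Rplp0 in SS differed by -0.31 (SE 0.10, adjusted p = 0.94).

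The difference between the p16 contrast in CP and that in hippocampus and cortex was itself tested. Limma called 0 members and 0% of all genes, and 2 members had an unadjusted p under 0.05 (6.62% of all genes), Rps15a at -0.35 and Rps27a at -0.30. The median was -0.15 for the members, -0.06 for all genes and -0.16 for the top signal quartile, where 851 of 4991 genes were above 0. For the members it was 0.07 after quantile normalization.

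**Figure D5:**
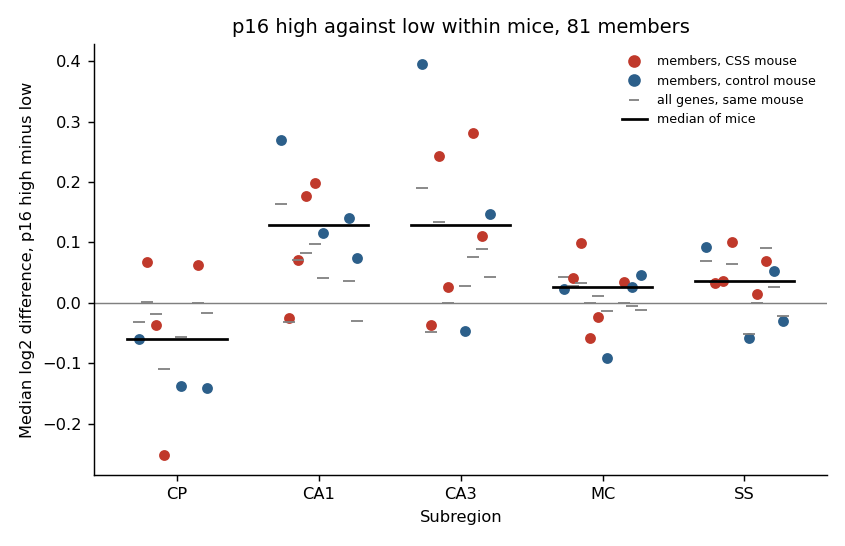
Median log2 difference between p16 high and p16 low AOIs over the 81 members in each mouse with both (points, red for CSS and blue for control) and over all genes in the same mouse (grey ticks), with a bar at the median of mice. Points lie on both sides of 0 in every subregion, and the medians of mice run from -0.06 in CP to 0.13 in CA1 and CA3.

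No member differed between stressed and control mice beyond the spread between mice. Over all subregions limma called 0 members and 0% of all genes between 6 CSS and 4 control mice, and 0 members had an unadjusted p under 0.05 (0.721% of all genes). No member had CSS and control mice that did not overlap, against 0.326% of all genes. The largest estimates were 0.14 (SE 0.13) for Rpsa and -0.11 (SE 0.11) for Rps18, and Rpl41, Rps6 and Rplp0 stood at 0.03 (SE 0.13), 0.03 (SE 0.14) and -0.02 (SE 0.13).

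Single mice lay far apart. Relative to the midpoint of both groups, the median over members was -0.52 in control mouse 1175, 0.04 in 1168, 0.15 in 1182 and 0.31 in 1151, and from -0.20 to 0.15 in the CSS mice. The lowest and the highest of the 10 mice were thus both controls. Mouse 1175 also had the most counts, 1337914 per AOI on average against 310406 to 990542 in the others, and the highest mean negative probe signal, 16.96 against 13.2 to 16.1. Their part in the low member values was not tested. The median over members between CSS and control was 0.02, and -0.16 to 0.13 when 1 mouse was left out at a time.

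Within subregions limma called 0 members, and member medians were -0.00 in CA1, 0.08 in CA3, -0.00 in MC, 0.03 in SS and 0.03 in CP. The top signal quartile had medians of -0.02 in CA1, 0.10 in CA3, -0.06 in MC, -0.01 in SS and 0.04 in CP. In CP, Rpl41 had 975 to 1079 in 5 CSS mice (median 998) and 649 to 1310 in 4 control mice (median 1090), so that the CSS mice lay inside the range of the controls. Members whose groups did not overlap numbered 0 in each subregion, against 0.531% of all genes in CA1, 0.566% in CA3, 0.561% in MC, 0.486% in SS and 0.967% in CP. The share of counts in CP was 2.09% ± 0.08 in CSS and 2.096% ± 0.270 in control mice. In the test of whether the p16 difference or the CP difference depended on stress, limma called 0 members and 0% of all genes. It put 0 members at an unadjusted p under 0.05 in each (3.31% of all genes for the p16 difference and 3.6% for the CP difference). Members whose differences did not overlap between CSS and control mice numbered 0 in both, against 0.661% of all genes for the p16 difference and 1.08% for the CP difference.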

How the data were processed

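The authors deposited 1 table with a signal for each of 19962 genes and a negative control probe in 90 AOIs. Per the submitters' processing notes the build is mm10, and the tools that processed the reads are not given in these sources. In that deposited signal each AOI holds whole probe counts times 1 factor, which sets its gene median to 22.067. Counts were recovered with at least 99.985% of values within 0.01 of a whole number.

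The replicate was the mouse. AOIs were averaged as log2(signal + 1) to 1 value per mouse and condition, so a fold is on that scale and understates change of low genes. Comparisons within mice were paired by the mouse number of the labels, with the mouse as a fixed block. All genes were fitted with limma 3.58.1 (lmFit, eBayes with trend) in R 4.3.3, two-sided, with Benjamini-Hochberg adjustment over all genes, and an adjusted p under 0.05 was a call. CSS and control values were centred within subregion and p16 label on the midpoint of the groups and averaged per mouse. Mouse 1169 has no CP and did not enter CP comparisons. The fits were tested on simulated data. Apart from the planted changes, simulated AOIs differed only in total count and random noise, so the pairing and the scaling were not tested there.

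Alternatives were log2(signal + 10), genes above the median signal, other scalings (75th percentile, TMM, total count, negative probe, quantile, background subtraction with a floor of 1), edgeR 4.0.16 on the recovered counts, no block, 1 fit over all subregions, the mouse as a random block, the 5 deeper or shallower mice, and leaving out each mouse. Shares of counts have no test. Sequences and positions are RefSeq's, on GRCm38.p6. The members, the lists and the tests were chosen with earlier results of these data known, and Rpl32l joined the paralogues after the table was seen. Named in each comparison are the 8 highest and 8 lowest members, 16 members always named, the paralogues and up to 4 members of each related list. The last are those with the smallest p. Some genes that this rule names are not reported here. Members named outside that rule (Rpl27a, Rpl19, Rpl29, Rps27 and those listed by count) were chosen after their values were seen.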

Additional observations from a re-analysis of the deposited data

Results flagged for a closer look

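Among 125 groups of 4 to 10 mice, 9 held a mouse far from the others by Dixon's criterion (7.2%), where chance gives about 1 in 20. In the choroid plexus against hippocampus and cortex, control mouse 1182 had the lowest log2 difference of mean signals in Rpl18 (0.5692) and Rpl19 (-0.07546) and the highest in Rpl3l (1.288), and CSS mouse 1170 the lowest in Rpl36 (0.6978). Between hippocampus and cortex, mouse 1170 stood at 0.478 in Rpl15 and CSS mouse 1169 at 0.7197 in Rps29. In p16 high against low AOIs of hippocampus and cortex, mouse 1170 stood at 0.436 in Rpl28. The median over members between MC and SS was -0.3342 in mouse 1169. In SS the median log2 signal over members was 6.5 in CSS mouse 1152, apart from the other CSS mice. All 9 values stayed in the tests.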

How the results depend on the processing

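Counts of called members under the alternatives are given here without the share of all genes called. The choroid plexus result kept its direction and its side of the threshold: 59 to 74 members were called higher under all alternatives, 68 to 73 when 1 mouse was left out, and the median reached 0.7155 with the negative probe. Hippocampus against cortex did not. With the 75th percentile, quantiles and total counts it gave 50, 3 and 26 members higher and 4, 67 and 16 lower, with medians of 0.1571, -0.2609 and 0.0295. TMM and edgeR gave 2 lower (Rpl3l and Rpl10l, medians 0.366 and 0.3501). The negative probe and background subtraction gave 0 lower (0.7597 and 0.6517), and so did the genes above the median signal and the 5 shallower mice. Single genes turned there after quantile normalization: Rplp2 (-0.0572), Rpl3 (-0.1652), Rpl5 (-0.0759), Rps14 (-0.1678), Rpl19 (-0.2328), Rpl15 (-0.1737), Rps29 (-0.6502), Rps24 (-0.649), Rps20 (-0.5386), Rpsa (-0.1875), Rpl41 (-0.5269), Rps6 (-0.2101) and Rplp0 (-0.1081). With the 75th percentile Rps29, Rps24, Rps20 and Rpsa stood at -0.0846, -0.0737, -0.0666 and -0.0492, and with total counts at -0.2125, -0.2017, -0.1942 and -0.1752, with Rpl41 at -0.0017 and Rps27l at -0.0682. Background subtraction turned Rpl3l (0.0899) and Rpl39l (0.3184).

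CA3 against CA1 gave 7 higher and 4 lower with the 75th percentile (median 0.0165), 8 and 4 with quantiles (0.0125), 3 and 11 with total counts, 1 higher with TMM and with edgeR (Rpl38 in both) and 42 lower with the negative probe. It gave 10 lower in the 5 deeper mice, 3 in the 5 shallower, and 13 to 20 when 1 mouse was left out. The mouse pairs the AOIs, and in the paired comparison of CA3 with CA1 the fit with no replicate block called 4 lower. That fit called 64 higher in CP and 75 higher between hippocampus and cortex, and 0 in the p16 contrasts.

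In the p16 contrast of hippocampus and cortex, 2 members were called among genes above the median signal and 15 with the negative probe, and the median was -0.0104, -0.0513 and -0.011 with the 75th percentile, quantiles and total counts. In CA1 these medians were -0.0009, -0.0595 and -0.0029, and 0.2086 with the negative probe, which called 3 members (Rpl13, Rpl23a and Rps27a). In CA3 they were -0.0949 with quantiles and -0.0328 with total counts. There 0 to 1 members were called when 1 mouse was left out, the 1 being Rpl5 without mouse 1152, and 1, again Rpl5, with the negative probe. In SS the medians were -0.0119 and -0.0265 with the 75th percentile and quantiles, and the CP against hippocampus and cortex difference of the p16 contrast had 0.0686 with quantiles and -0.0051 with total counts. The cause of these changes was not tested. In the stress comparisons no alternative called a member. The 4 paralogues near the negative probe were poorly measurable at this depth. Over all alternatives, 2007 of the values of single genes kept their direction and side, 52 became stronger, 48 weaker and 25 reversed.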
